A study of Mus musculus with 12 samples.

Results

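The replication-dependent histone genes encode the core histones H2A, H2B, H3 and H4 and the linker histone H1. They were taken as every protein-coding gene of the count table whose Ensembl identifier paired with a mouse symbol beginning Hist1h, Hist2h, Hist3h or Hist4h in the older naming, without symbols ending in -ps. This gave 67 members among 55401 genes counted, of which 55141 could be paired with a symbol. There were 6 H1, 18 H2A, 18 H2B, 12 H3 and 13 H4 members. In the mouse genome build GRCm38, 54 of them lay on chromosome 13, 10 on chromosome 3, 2 on chromosome 11 and 1 on chromosome 6. A further 3 genes with such a symbol were annotated as pseudogenes and left out.

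The RNA came from oocytes cut by laser from sections of ovaries of juvenile C57Bl/6j x CBA/J female mice. The study asked what happens in the oocyte of a dormant primordial follicle and of a growing primary follicle when AMPK, an energy-sensing kinase, is inhibited with dorsomorphin (DM). The 4 groups were oocytes from primordial follicles without DM (primordial control), from primordial follicles with DM (primordial DM), from primary follicles without DM (primary control) and from primary follicles with DM (primary DM), each with 3 libraries of pooled oocytes. The sample labels call the control treatment sham and describe every library as in vivo, whereas the study's methods describe ovaries cultured for several days in medium with DMSO or DM, and all 12 libraries share strain, culture and capture. No genetic change was involved. Library totals ran from 14034586 to 42639326 counts. Of 21897 protein-coding genes, between 12.3% (the third primary control library) and 39.2% (the first primordial control library) had at least 10 counts. Oocyte markers were present in every library, with 2 to 14 of 16 at 10 counts or more, and so were granulosa markers (3 to 10 of 13), stroma or theca markers (4 to 8 of 10) and genes of cycling cells (5 to 13 of 14), while 0 of 5 blood markers reached 10 counts in any library. The oocyte label is thus met unevenly: the 3 oocyte markers with the highest mean level, Ddx4, Kit and Zp1, were as low as 11, 8 and 1 counts in their lowest libraries. The part of other cell types in the histone counts was not tested. In pooled material, fewer cells of a type and less RNA per cell cannot be told apart.

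Replication-dependent histone genes supply the histones that package newly copied DNA, and their mRNAs accumulate mainly during S phase. Most are short genes without introns, many in divergently transcribed clusters, and their mRNAs end in a conserved stem-loop, bound by SLBP, in place of a poly(A) tail. Growing oocytes are known to store histone mRNA and SLBP for the divisions of the early embryo, although the oocyte itself is arrested in meiosis and does not replicate its DNA. How fully the amplification and library kits recovered mRNAs without a poly(A) tail was not tested, so a member's count is the reads obtained with them and not a measure of its mRNA against that of other genes.

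The stem-loop is the element that sets these mRNAs apart, so examples of the main forms are given here 5′ to 3′ as DNA letters, with 5 bases on each side, from the GENCODE M21 transcripts of build GRCm38. The capitals mark the 16-base stem-loop, which lies past the coding sequence of each single-exon gene. The Hist1h4d element lies at chr13:23581950-23581965 (+ strand), that of Hist1h4j at chr13:21735437-21735452 (+), that of Hist1h3b at chr13:23752820-23752835 (+), that of Hist1h2bk at chr13:22036300-22036315 (+) and that of Hist2h2ac at chr3:96220418-96220433 (- strand).
Hist1h4d: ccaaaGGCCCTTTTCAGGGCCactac
Hist1h4j: ctaaaGGTCCTTTTCAGGACCaccac
Hist1h3b: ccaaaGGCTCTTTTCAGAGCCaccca
Hist1h2bk: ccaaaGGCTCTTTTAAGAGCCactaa
Hist2h2ac: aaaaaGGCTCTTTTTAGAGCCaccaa
A stem-loop of this kind was found in the annotated transcripts of 46 of the 67 members. All 12 H4 members that had one opened with GGCCC (10 members) or GGTCC (2 members), and the 34 in the other families opened with GGCTC. The single most frequent form was that of Hist1h3b, carried by 26 members of H1, H2A, H2B and H3. The remaining 21 members had no stem-loop in their annotated transcript, among them Hist2h2bb (ENSMUSG00000105827, chr3:96269752-96270132), annotated as a single exon of 381 bases. Annotated transcripts ran at least 100 bases past the stem-loop in 23 members and less than that in 23. The median of the members' mean CPM (counts per 1000000 counts of the library total) was 63.4 in the former, 71.8 in the latter and 151 in those without an annotated stem-loop, so neither annotation class held only weakly counted members.

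Promoters are shown for 2 members that the counts set apart below, Hist1h4d and Hist2h2bb, as the 250 bases before the RefSeq start site (GRCm38.p6), at chr13:23581318-23581567 (+) and chr3:96269450-96269699 (+). The capitals mark matches, on either strand, to TATAAA (the TATA box), CCAAT (the CCAAT box), ATTTGCAT (the octamer of H2B promoters) and GGTCC (the core of an H4 promoter element).
Hist1h4d: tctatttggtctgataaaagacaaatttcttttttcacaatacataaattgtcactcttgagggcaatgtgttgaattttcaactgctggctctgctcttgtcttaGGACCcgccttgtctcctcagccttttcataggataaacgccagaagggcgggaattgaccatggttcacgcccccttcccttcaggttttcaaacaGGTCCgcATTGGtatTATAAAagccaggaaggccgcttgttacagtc
Hist2h2bb: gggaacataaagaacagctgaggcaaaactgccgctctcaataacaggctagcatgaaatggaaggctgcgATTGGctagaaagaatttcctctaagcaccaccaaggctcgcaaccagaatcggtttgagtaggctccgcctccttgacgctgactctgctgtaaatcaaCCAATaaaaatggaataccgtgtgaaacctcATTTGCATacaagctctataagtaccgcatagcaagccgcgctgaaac
A RefSeq window of 250 bases before and 50 after the start was at hand for 62 members, and there were 32851 such windows in all. Both strands were searched, and none of the 4 motifs contains another. TATAAA was found in 35 member windows (56.5%), against 13.6% of all windows. CCAAT was found in 53 (85.5%), against 37.4%: in every window of the H1, H2A, H2B and H3 members but in only 3 of 12 H4 windows. ATTTGCAT was found in 13 (21%), against 1.74%, in 7 of 18 H2A and 6 of 16 H2B windows and in none of the other families. GGTCC, at 41.9% of member windows and 45.5% of all, was found in 11 of 12 H4 windows. A match describes the letters only. In 12 cases an H2A and an H2B gene start within 306 bases of each other on opposite strands. Their windows can then share bases, so 1 match can count for both genes.

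The members were counted strongly but unevenly in these oocyte libraries. Between 29 (the third primordial DM library) and 57 (the first primordial control library) of the 67 members had at least 10 counts in a library, which is 43.3% to 85.1% of them. At 1000 counts or more the number ran from 8 in the third primary control library to 37 in the first primordial control library. Of all protein-coding genes 3.49% and 19.4% had as many counts in these libraries. Of the 804 member-by-library values, 88 were 0, 202 were above 0 but under 10, 200 were at least 10 but under 100, only 61 were at least 100 but under 1000, 140 were at least 1000 but under 10000 and 113 were 10000 or more. The same gene was thus often above 1000 counts in one library and under 100 in another library of its own group. Among all protein-coding genes 64.1% of values were 0 and 4.86% were at least 100 but under 1000. Those genes had 7.74% of values from 10 to under 100 and 6.41% from 1000 to under 10000. The dip from 100 to under 1000 was thus not particular to the members. For the 58 members with at least 100 counts in all, the median share of a gene's summed CPM that came from its single highest library was 47.8%, against 60.8% for 9514 protein-coding genes with as many counts.

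**Figure D1:**
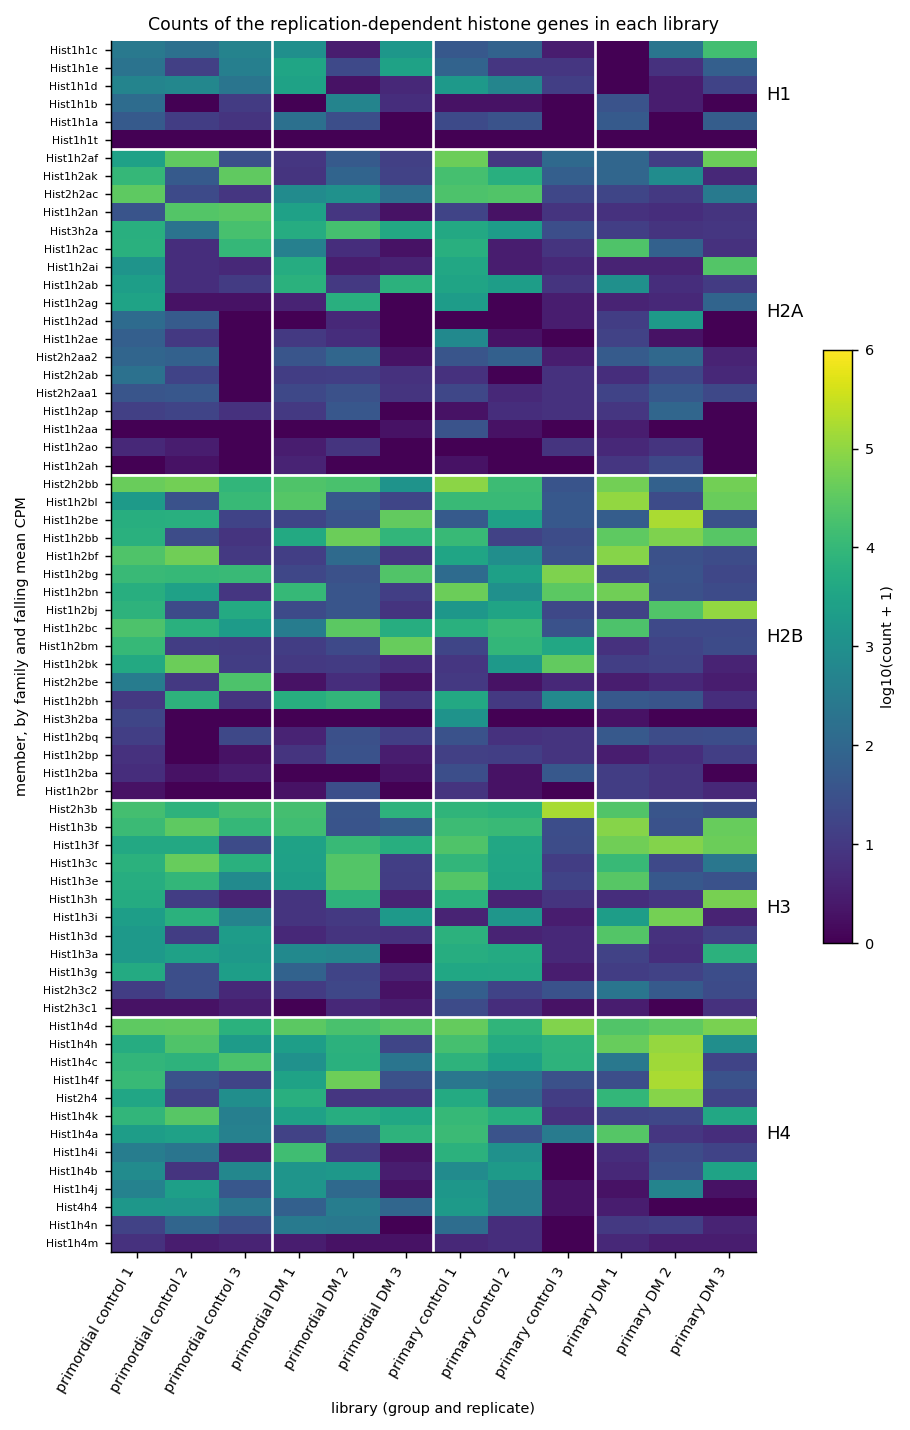
Counts of all 67 members (rows, by family and falling mean CPM) in the 12 libraries (columns, by group and replicate), as log10(count + 1) on the colour scale. Hist1h4d, the first H4 row, is the only row bright in every library, while most rows switch between bright and dark among the 3 libraries of a group.

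**Figure D2:**
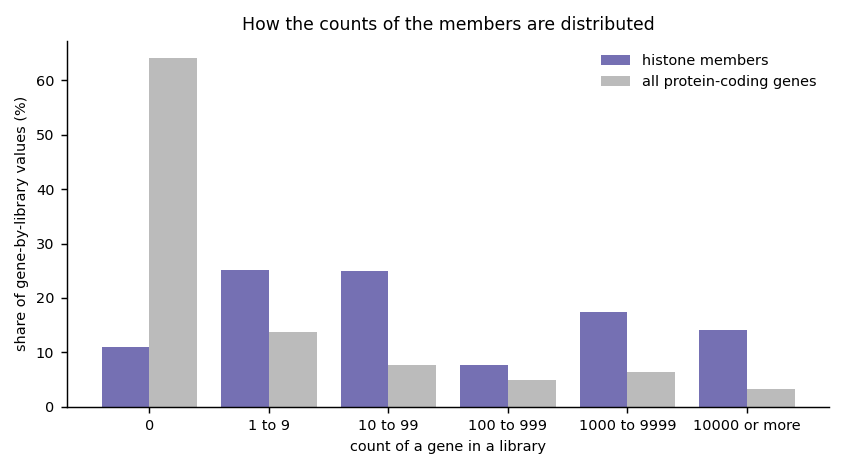
Share (%) of gene-by-library values in 6 classes of count, for the 804 values of the members (purple) and for all protein-coding genes (grey). The members have few values from 100 to under 1000 (7.59%) between higher shares on both sides. All protein-coding genes dip in the same class (4.86%, between 7.74% and 6.41%). The members have 10.9% zeros against 64.1% for all protein-coding genes.

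H4 forms the core of the nucleosome with H3, and the H4 genes encode nearly the same protein. Hist1h4d (ENSMUSG00000061482, chr13:23581598-23582735) was the only member with at least 1000 counts in all 12 libraries. It had 33068, 35209 and 6611 counts in the primordial control libraries, 31060, 18814 and 25485 in primordial DM, 37353, 8555 and 74861 in primary control and 22920, 33229 and 62556 in primary DM. The 4 groups overlapped, and the lowest library, the third primordial control one, still stood far above the detection limit of 10 counts. Hist1h4h had 5112, 21915 and 1976 counts in primordial control, 2329, 7131 and 17 in primordial DM, 17441, 4785 and 8199 in primary control and 39693, 111314 and 932 in primary DM. Hist1h4c had 8934, 7545 and 19914, then 1064, 6376 and 217, then 7436, 2580 and 7581, then 250, 139511 and 16 in the same order. Both passed 1000 counts in at least 1 library of every group and dropped to 17 or 16 counts in 1 DM library. Hist1h4f had 11180, 31 and 16 counts in primordial control, 2846, 47024 and 30 in primordial DM, 242, 160 and 29 in primary control and 27, 174324 and 32 in primary DM, so that 70.1% of its summed CPM came from the second primary DM library. Hist2h4, Hist1h4k and Hist1h4a also had at least 10 counts in 9 or more libraries. At the other end, Hist1h4m never passed 6 counts and Hist1h4n never passed 287.

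H3 pairs with H4 in the nucleosome core. Hist2h3b had 15747, 7704 and 15684 counts in primordial control, 15979, 38 and 7734 in primordial DM, 8559, 6831 and 164731 in primary control and 23422, 37 and 27 in primary DM. Its highest library, the third primary control one, held 56.7% of its summed CPM, and the DM groups each held libraries under 40 counts. Hist1h3f had 4197, 4247 and 22 counts in primordial control, 2834, 10837 and 5885 in primordial DM, 21981, 4006 and 24 in primary control and 49721, 78863 and 45895 in primary DM. It had at least 1000 counts in 10 libraries, and in the primary DM libraries it lay above every primary control library. Hist1h3b had 11975, 32206 and 10061 counts in primordial control, 14853, 35 and 58 in primordial DM, 12897, 11572 and 25 in primary control and 80556, 31 and 40221 in primary DM. Hist1h3c had 6826, 40662 and 6468, then 2724, 24778 and 12, then 9076, 3559 and 11, then 11140, 20 and 234 counts in that order. In both genes all primordial control libraries were above 1000 and each other group held at least 1 library under 100 counts. Of the other H3 members, Hist1h3e, Hist1h3a, Hist1h3g and Hist2h3c2 had at least 10 counts in 9 or more libraries, the last of them with at most 210.

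H2B forms a dimer with H2A, and the H2B members had the highest median level of the 5 families, at 282 CPM, against 170 for H3, 156 for H4, 15.6 for H2A and 9.59 for H1. These CPM medians are per gene and not per length. Per kilobase of annotated exon, averaged over the 12 libraries, Hist2h2bb was the highest member at 2457 CPM per kilobase, ahead of Hist1h2bl (1704), Hist2h3b (1594), Hist1h4f (1243) and Hist1h4h (1120). Hist2h2bb had 41534, 53117 and 8941 counts in primordial control, 22504, 19167 and 1209 in primordial DM, 89271, 13260 and 35 in primary control and 51459, 73 and 51867 in primary DM. It had at least 1000 counts in 10 libraries and under 100 in the third primary control and second primary DM ones. An uncharacterised gene on the same strand, Gm42743, overlaps it and carried counts within 5% of its own in 9 of the 12 libraries, so these reads cannot be assigned to one of the pair. Hist1h2bl had 1878, 32 and 11094 counts in primordial control, 25496, 45 and 17 in primordial DM, 11668, 11487 and 43 in primary control and 108299, 22 and 43325 in primary DM, and 82.8% of its 50-base windows occur at another locus. Hist1h2be had 5729, 6162 and 15, then 17, 33 and 36021, then 49, 2676 and 44, then 59, 173763 and 29 counts in that order. Hist1h2bb had 6493, 24 and 7, then 4452, 44054 and 8867, then 11159, 14 and 24, then 32345, 68452 and 27833. Hist1h2bb was the only one of these 4 whose DM libraries were all above 1000 counts, at both stages. Hist1h2bc and Hist1h2bm were also at 10 counts or more in at least 9 libraries. The low end of the family held Hist1h2ba, the testis and oocyte variant TH2B, at no more than 44 counts in any library, and Hist1h2br at no more than 26.

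The H2A members were detected in fewer libraries than the other core families, with a median of 5 libraries at 10 counts or more per gene, against 10.5 for H2B and 10 each for H3 and H4. Of the 18, 17 ever reached 10 counts, 10 ever reached 1000, and only 4 had at least 10 counts in 9 or more libraries. Hist1h2af had 2781, 34910 and 28 counts in primordial control, 8, 49 and 13 in primordial DM, 45397, 8 and 109 in primary control and 96, 11 and 43823 in primary DM. Hist2h2ac had 32859, 21 and 8, then 783, 1065 and 157, then 20733, 23462 and 18, then 17, 9 and 273 counts in that order. Each group other than primordial DM held both a library above 200 and a library under 30 counts of Hist2h2ac. Hist3h2a had 6076, 187 and 18417 counts in primordial control, 5164, 17246 and 4086 in primordial DM, 4208, 2061 and 27 in primary control and 12, 7 and 8 in primary DM. All 3 primary DM libraries were at or near the floor, but the overlapping same-strand gene Trim17 carried counts within 5% of those of Hist3h2a in all 10 libraries where the latter had at least 10, so the pair cannot be told apart. Hist1h2aa (TH2A, the partner of TH2B) reached 33 counts at most, and Hist1h2ao 7.

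The linker histones bind the nucleosome from outside and were the family with the lowest counts. Hist1h1c had 262, 166 and 477 counts in primordial control, 976, 2 and 1505 in primordial DM, 44, 78 and 2 in primary control and 0, 219 and 15350 in primary DM. It was the only H1 member with at least 10 counts in 9 or more libraries, and 74.2% of its summed CPM came from the third primary DM library. Hist1h1e ranged from 0 to 3430 counts, Hist1h1d from 0 to 2897 and Hist1h1b from 0 to 518. Hist1h1t, the linker histone of spermatocytes, was at 0 in all 12 libraries, where 3 counts would have been 0.0704 to 0.214 CPM.

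Near-identical copies limit what can be said of single genes. In 15 members at least 80% of all 50-base windows of the annotated transcripts also occur at another locus, and their median mean level was 1.56 CPM with 6 of 15 ever at 1000 counts. In the other 52 members the median was 135 CPM and 42 ever reached 1000 counts. Hist2h2aa2, whose windows are all shared, never passed 103 counts. How reads with several matches were counted was not given in the sources used here. Opposite-strand genes overlap 21 members and never passed 469 counts themselves.

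Many members sit in divergent pairs that share a promoter region. There were 13 such pairs with start sites 176 to 660 bases apart, and 12 of them join an H2A and an H2B gene. In the 7 pairs of which both genes ever reached 1000 counts, both were at 1000 or more in 17 pair-by-library cases and only one of them in 33. Both were thus counted together in 34.0% of cases with either, against 33.7% over all 1128 pairs of members that ever reached 1000 counts. Hist1h2ac and Hist1h2bc were at 1000 together in 4 libraries, Hist1h2ak and Hist1h2bn in 3.

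Summed over the 67 members, histone counts were lower with DM in oocytes from primordial follicles and higher with DM in oocytes from primary follicles. The sum was 9028, 11991 and 14818 CPM of the library total in primordial control and 5248, 8165 and 8798 in primordial DM. It was 14111, 11155 and 12766 CPM in primary control and 24845, 22098 and 15282 in primary DM. The DM and control libraries did not overlap at either stage, with means of 7404 ± 1894 against 11946 ± 2895 CPM (SD, n = 3 each, ratio 0.620) in primordial and 20742 ± 4924 against 12678 ± 1480 CPM (ratio 1.64) in primary follicles. A single gene made up 11.9% to 41.5% of the sum in a library, and a different gene often led: Hist2h2bb led in 3 libraries, Hist1h4f in 2, and Hist1h2ak, Hist1h4d, Hist1h2bm, Hist2h2ac, Hist2h3b, Hist1h2bl and Hist1h2bj in 1 each. Scaled by the library total alone, 23 of 52 tested members were above 0 in primordial follicles (median log2 fold change -0.26). In primary follicles 21 of 48 were (median -0.31), so under this scaling the higher sum was not a rise of most members. The medians over all genes were -0.41 in primordial and -0.87 in primary follicles. At least 1000 counts were reached by 36, 27 and 8 members in the primary control libraries and by 19, 11 and 14 in primary DM. Of all protein-coding genes 12.7%, 11.1% and 3.49% did so in these primary control libraries and 6.93%, 4.27% and 5.46% in primary DM. The difference in this count was thus not particular to the members. With totals scaled by TMM, a scaling that centres the bulk of genes, the DM and control sums overlapped at both stages. They were 9329 ± 3634 against 10655 ± 5048 CPM in primordial and 31008 ± 15216 against 13601 ± 15192 in primary follicles. Under TMM, 27 of 52 tested members were above 0 in primordial follicles (median 0.30, against 0.13 over all genes). In primary follicles 29 of 48 were (median 1.23, against 0.31). With counts on protein-coding genes as the denominator the DM and control sums did not overlap at either stage. This scaling is close to the library total, with means of 7711 against 12432 CPM in primordial and 21435 against 13004 in primary follicles. The same list of cycling-cell genes that was checked above differed the other way under the library total: its summed level was 137 to 430 CPM in primordial control and 450 to 985 in primordial DM, and 603 to 6764 in primary control and 3.59 to 521 in primary DM. Single genes led that sum as well. Mcm4 had 195077 counts in the third primary control library and Top2a 59440 in the first. Ccna2 had 24578 in the second primordial DM library and 12859 in the first primary DM one. The part of this list in the histone sums was not tested.

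**Figure D3:**
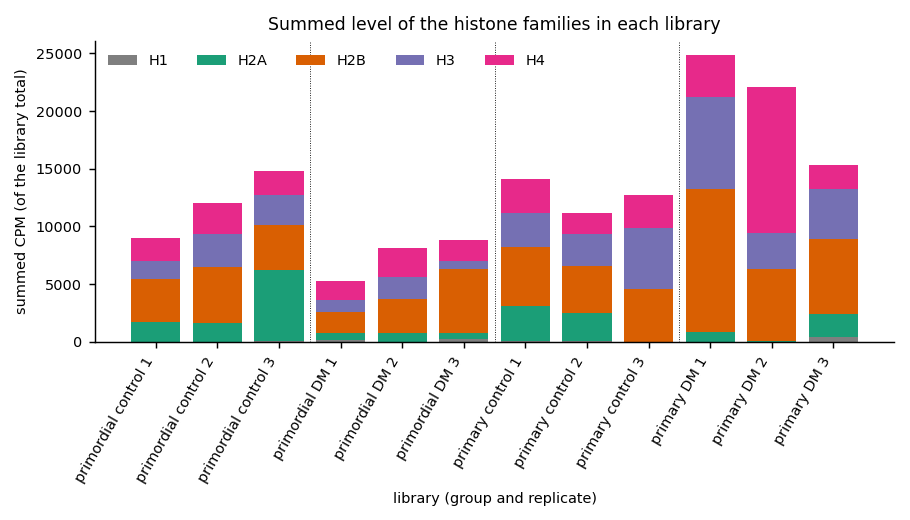
Summed CPM of the members of each family (stacked colours) in each of the 12 libraries, by group and replicate, scaled to the library total. The 3 primordial DM bars (5248 to 8798) are the lowest and the 3 primary DM bars (15282 to 24845) the highest, and the H2A segment runs from 8.87 to 6121.

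By family, only H2A did not overlap between the primordial groups. The H2A sum was 1733, 1621 and 6121 CPM in primordial control and 549.8, 713 and 541 in primordial DM, with no overlap under the library total or TMM. H2B (4171 ± 629 against 3433 ± 1914 CPM, control against DM), H3 (2330 ± 663 against 1252 ± 653), H4 (2246 ± 365 against 1977 ± 458) and H1 (41.2 ± 27.2 against 141 ± 108) overlapped between the primordial groups. In primary follicles only the H2B sum did not overlap, at 5140, 4069 and 4533 CPM in control and 12401, 6232 and 6480 in DM, and it overlapped under TMM. The H4 sum of the second primary DM library was 12657 CPM, of which Hist1h4f and Hist1h4c had the most counts, against 3611 and 2010 in the other primary DM libraries.

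In oocytes from primordial follicles, edgeR's quasi-likelihood test called no member with DM at a Benjamini-Hochberg adjusted p under 0.05 over all 6699 genes tested. Of these genes, 0.0149% passed. On simulated counts at the dispersion of these data it called 0% of genes changed by 2 on the log2 scale. The absence of a call thus does not show that a member was unchanged. The low-count filter kept 52 members and removed 15. At an unadjusted p under 0.05 there were 7 members against a background of 7.33%, 5 of them lower with DM (background 4.85%), and DESeq2 called 7 against a background of 9.7%, 5 of them lower (background 5.49%). The member with the smallest p was Hist1h2ak, an H2A gene, with 10168, 48 and 34426 counts in primordial control and 7, 83 and 14 in primordial DM. The highest DM library thus lay above the lowest control one, and the log2 fold change (DM over control) was -9.13 (SE 2.79, edgeR adjusted p = 0.460). Hist1h2bk, an H2B gene, had 4437, 45560 and 11 counts in control and 9, 10 and 5 with DM, and Hist1h2bf had 22371, 48893 and 9 in control and 12, 120 and 8 with DM. Their log2 fold changes were -10.56 (SE 3.44) and -8.44 (SE 2.95), each with an edgeR adjusted p of 0.460. In all 3 genes 2 control libraries were above 1000 counts and 1 was under 50 counts. Hist1h2ak was -5.93 without the third primordial control library, and Hist1h2bk and Hist1h2bf were -6.64 and -6.52 without the second. DESeq2 gave Hist1h2bf an adjusted p of 0.000852 and gave none for the other two. In CPM scaled by TMM, 5 members did not overlap between the groups, against a background of 12.6%: Hist1h2bb was higher with DM and Hist1h2af, Hist1h2bk, Hist1h3a and Hist4h4 were lower. The tested members had a median log2 fold change of 0.30, with 27 above 0, against 0.13 over all genes, and without TMM scaling these medians were -0.26 and -0.41, so the sign of the member median depends on the scaling.

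In oocytes from primary follicles, no member passed the same edgeR test with DM, nor did any of the 4181 genes tested (0% of them). Of the members, 48 were tested and 19 removed by the filter. An unadjusted p under 0.05 was reached by 4 members against a background of 12.2%, 2 higher (4.04%) and 2 lower (8.11%), and DESeq2 called 9 members against a background of 16.7%, 7 of them higher (11.2%). Hist1h4f had the smallest p, from the counts given above: 242, 160 and 29 in control against 27, 174324 and 32 with DM. Its log2 fold change of 9.93 (SE 3.92, edgeR adjusted p = 0.395) rested on the second primary DM library, without which it was -1.30. Hist1h2bg, an H2B gene, had 123, 2540 and 68961 counts in primary control and 18, 33 and 18 in primary DM, and Hist1h2bk had 8, 1659 and 36486 in control and 12, 14 and 3 with DM. Their log2 fold changes were -10.81 (SE 4.27) and -11.20 (SE 4.57), with an edgeR adjusted p of 0.395 each. In counts every DM library of Hist1h2bg lay below every control library, but the groups overlapped after TMM scaling, and those of Hist1h2bk overlapped in counts. Leaving out the third primary control library brought these to -4.79 and -5.45. The TMM-scaled CPM of 6 members did not overlap between the groups, against a background of 13.3%. Of these, Hist1h2bb, Hist1h3f, Hist1h2bq and Hist2h2aa1 were higher with DM and Hist1h1d and Hist3h2a lower. Hist1h2bq and Hist2h2aa1 had at most 47 and 43 counts in any library, and 97.3% and 96.3% of their 50-base windows occur at another locus. In counts the groups of Hist1h2bq, Hist2h2aa1 and Hist1h1d overlapped. The median log2 fold change of the tested members was 1.23, with 29 above 0 (60.4%), against 0.31 over all genes, of which 52.6% were above 0. The member median was 0.21 without the first primary DM library and 3.18 with DESeq2 size factors, under which the median of all genes was 2.04, and without TMM these medians were -0.31 and -0.87.

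**Figure D4:**
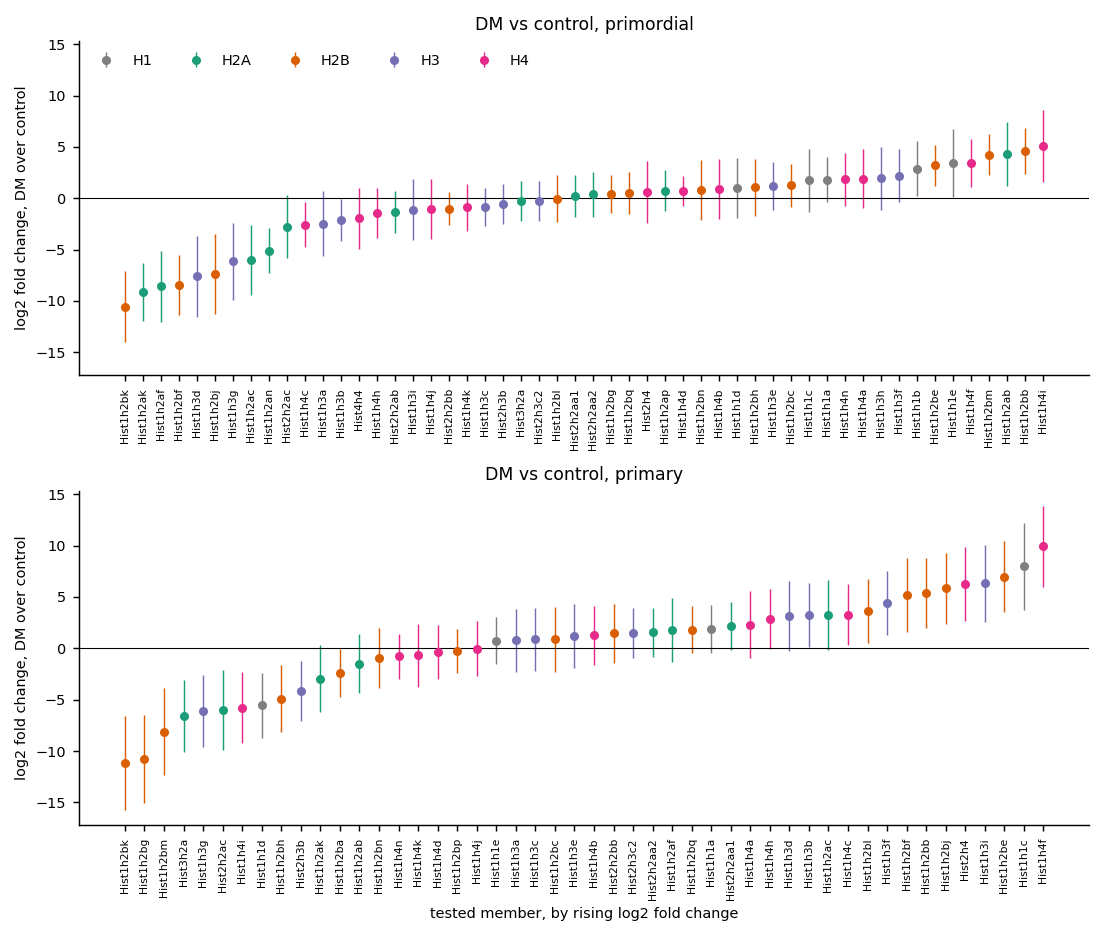
Log2 fold change (DM over control, edgeR) of each tested member in primordial (top, 52 members) and primary (bottom, 48 members) follicles, in rising order, with bars of 1 standard error and colours by family. Values run from -10.56 to 5.08 and from -11.20 to 9.93, with a median standard error of 2.59 and 3.11, and none passed the adjusted threshold.

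Between the stages without DM, primary against primordial control, 0 of 49 tested members and 0% of 6726 genes passed the edgeR test. There were 2 members at an unadjusted p under 0.05 (background 6.44%) and 1 by DESeq2 (background 4.28%). That 1 was Hist1h2an, an H2A gene, with 36, 24717 and 29592 counts in primordial control and 16, 1 and 7 in primary control, a log2 fold change of -10.72 (SE 3.38, edgeR adjusted p = 0.397, DESeq2 adjusted p = 0.00155). In counts every primary control library lay below every primordial control library, but after TMM scaling the groups overlapped. Hist1h2bn, an H2B gene, had 5788, 2752 and 8 counts in primordial control and 46099, 1014 and 30695 in primary control (log2 fold change 5.03, SE 2.51, edgeR adjusted p = 0.749). Hist2h3b, with counts given above, had a log2 fold change of 4.08 (SE 2.20, edgeR adjusted p = 0.749), which was -0.66 without the third primary control library. Only the TMM-scaled CPM of Hist1h1c did not overlap, lower in primary control, against a background of 9.55%. The summed level was 12678 ± 1480 in primary against 11946 ± 2895 CPM in primordial control, a difference within the spread between replicates, and it turned to -727 CPM (primary minus primordial) without the first primordial control library. Under TMM the sums were 23529 ± 24096 against 9647 ± 3957 CPM and also overlapped.

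Between the stages with DM, 0 of 47 tested members and 0% of 4331 genes passed the edgeR test, with 8 members at an unadjusted p under 0.05 (background 17.2%) and 11 by DESeq2 (background 21.6%), 9 of them higher in primary DM (background 11%). Hist1h2bj, an H2B gene, had 21, 37 and 7 counts in primordial DM and 14, 23203 and 104060 in primary DM. In 2 primary DM libraries it thus had over 10000 counts, and in the first it was as low as in primordial DM. Its log2 fold change was 12.47 (SE 3.90, edgeR adjusted p = 0.286), and DESeq2 gave an adjusted p of 2.58e-10. Hist1h2af (8, 49 and 13 against 96, 11 and 43823 counts) and Hist1h2bf (12, 120 and 8 against 79186, 29 and 24) had log2 fold changes of 10.64 (SE 4.22) and 10.19 (SE 4.07), with an edgeR adjusted p of 0.286 each. Both rested on 1 primary DM library and were 2.12 (Hist1h2af, without the third) and 0.72 (Hist1h2bf, without the first). Of the tested members, 7 did not overlap in TMM-scaled CPM, against a background of 16.2%. Hist1h2bb, Hist1h2bq, Hist1h3f, Hist2h2aa1 and Hist2h3c2 were higher in primary DM, and Hist3h2a and Hist4h4 lower. Hist4h4 had 69, 344 and 93 counts in primordial DM and 2, 0 and 0 in primary DM. The summed level was 20742 ± 4924 CPM in primary DM against 7404 ± 1894 in primordial DM, with no overlap under the library total, protein-coding or TMM scaling.

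**Figure D5:**
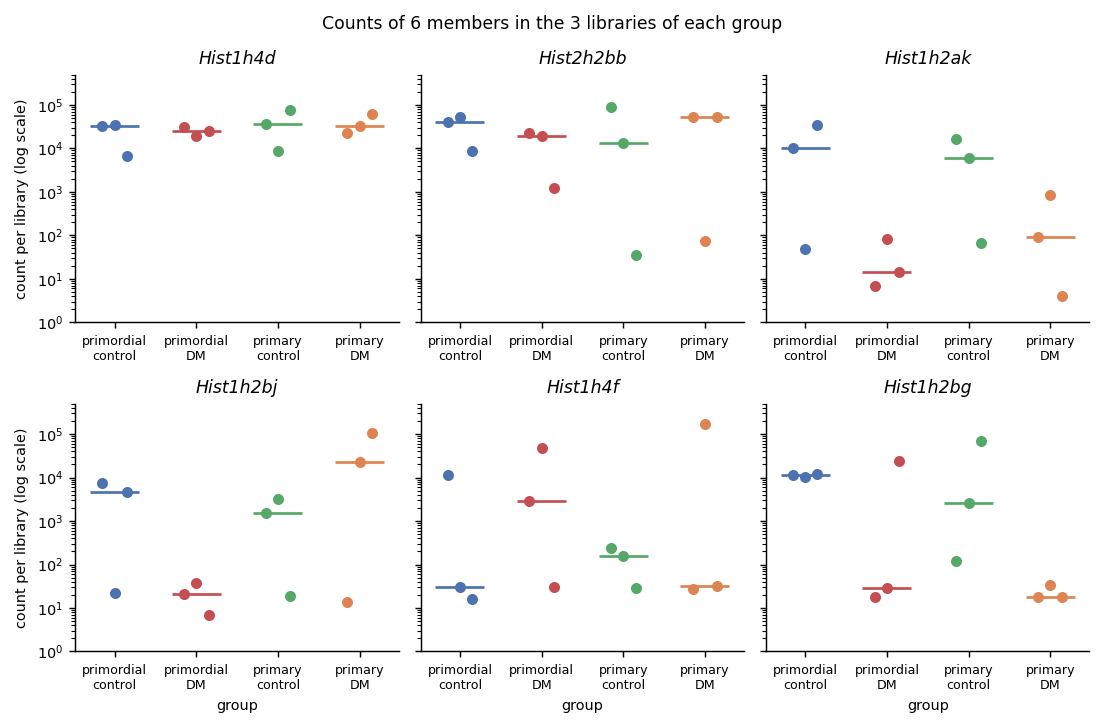
Counts per library (log scale) of 6 members in the 4 groups, with a point per library and a line at the group's median. Hist1h4d stays between 6611 and 74861 counts throughout, while the other 5 genes have libraries below 100 and above 10000 counts, often within 1 group.

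The difference of the DM response between the stages was tested as an interaction over all 12 libraries. No member of 58 tested and 0% of 8500 genes passed the edgeR test, while 11 members had an unadjusted p under 0.05 (background 18.9%) and DESeq2 called 5 (background 7.96%). Hist1h2bj had the smallest p. It had 7419, 22 and 4719 counts in primordial control and 1496, 3143 and 19 in primary control, beside the DM counts given above, and its interaction was 13.61 on the log2 scale (SE 4.10, edgeR adjusted p = 0.0974, DESeq2 adjusted p = 3.81e-06). Hist1h2bf had 22371, 48893 and 9 counts in primordial control and 3440, 945 and 29 in primary control, with an interaction of 14.09 (SE 4.36, edgeR adjusted p = 0.104). Hist1h2bg had 11488, 10587 and 11951 in primordial control and 18, 29 and 23709 in primordial DM, beside the primary counts given above, with an interaction of -11.10 (SE 3.86, edgeR adjusted p = 0.132). Without the first primary DM library the interaction of Hist1h2bf was 4.57, and that of Hist1h2bg was -1.98 without the third primordial DM library and -4.87 without the third primary control library. The 2 DM comparisons use different libraries, whereas each stage comparison shares libraries with both.

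Genes that act on histone mRNA and on histones gave no call by edgeR either, while DESeq2 called some of them. Of 17 histone mRNA processing genes, 10, 8, 13 and 8 were tested in the comparisons of DM in primordial follicles, DM in primary follicles, stage in control and stage in DM, and 0 passed the edgeR adjusted threshold in each. At an unadjusted p under 0.05 there were 0, 2, 1 and 2, and by DESeq2 1, 2, 1 and 2. Slbp, whose product binds the stem-loop, had 3356, 10 and 45 counts in primordial control, 3, 10 and 5 in primordial DM, 6, 3400 and 4 in primary control and 18093, 4 and 21798 in primary DM. Slbp thus alternated between over 1000 and under 100 counts, as many members did. Such unevenness was not particular to histone-related genes. Over 9514 protein-coding genes with at least 100 counts in all, the highest library held a median of 60.8% of a gene's summed CPM. Ncbp1, a cap-binding subunit, ranged from 0 to 15374 counts and Tut7, a terminal uridylyltransferase, from 4 to 38202. Of 21 histone chaperone genes 14, 14, 15 and 14 were tested with 0 passing (0, 2, 1 and 2 at an unadjusted p under 0.05, and 0, 5, 0 and 5 by DESeq2), and their most highly counted gene, Atrx, had 2804 counts or more in every library. Of 12 replacement variant genes, which are made outside S phase, 7, 5, 8 and 5 were tested with 0 passing (0, 0, 0 and 1 unadjusted, and 0, 2, 0 and 1 by DESeq2). H3f3b, which encodes H3.3, had at least 43 counts in every library, and H1f0, a linker variant, had 28793, 18768 and 19 counts in primordial control, 70590, 990 and 16 in primordial DM, 1919, 3802 and 13 in primary control and 40, 29 and 24 in primary DM.

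Of the marker lists set beside these results, 0 oocyte, granulosa, stroma or theca, or cycling genes passed the edgeR adjusted threshold in any of the 4 comparisons. At an unadjusted p under 0.05 in those comparisons there were 1, 0, 0 and 0 oocyte genes, 2, 1, 0 and 2 granulosa genes, 0, 0, 0 and 0 stroma or theca genes, and 1, 1, 2 and 2 cycling genes, and DESeq2 called 1, 0, 0 and 2, then 3, 0, 0 and 1, then 1, 1, 0 and 3, then 2, 0, 2 and 2. No blood marker was tested. The summed oocyte level ran from 34.3 to 1281 CPM in primordial control, 17.4 to 1075 in primordial DM, 37.3 to 1485 in primary control and 56.3 to 1118 in primary DM, and the granulosa level from 369 to 2149, 354 to 1972, 435 to 7451 and 741 to 11476 CPM, overlapping between all groups.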

How the data were processed

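Oocytes were laser-captured and pooled by stage, and their RNA was linearly amplified before library preparation and Illumina sequencing. The labels name an exon-capture kit (TruSeq RNA Access) for microdissected oocytes and Smart-seq II for collected oocytes, and the study's methods do not tie either kit to microdissection by name. The authors trimmed the reads, mapped them to mm10 (STAR per the labels' processing notes, TopHat2 per the methods) and deposited raw read counts per gene from featureCounts, 1 column per library; the strand and multi-mapping settings were not given in the sources used here.

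From these counts, levels were computed as CPM (counts per 1000000 counts of each library's total). Members were read out of edgeR 4.0.16 quasi-likelihood fits (R 4.3.3) over all genes kept by filterByExpr, with TMM factors, a prior count of 0.125 and Benjamini-Hochberg adjustment. Each pair of groups was fitted on its 6 libraries (3 per group) and the interaction on all 12. DESeq2 1.42.0, other scalings and filters, a replicate block and leaving out each library were alternatives. Standard errors were derived from the fold change and its F statistic. Tables and figures were made with Python 3.11.15 and pandas 2.3.3. The study calls the libraries of a group biologically independent, but the labels do not say whether they came from separate animals, so p-values measure the spread between these libraries. As a check for duplicated libraries only, those of a group were compared by chi-square (lowest value per degree of freedom 1588), which covers counting error alone and treats amplified reads as independent. Totals of 14034586 to 42639326 counts set the counting precision.

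On simulated counts with a dispersion of 0.05, edgeR called 98%, 99.5%, 98% and 96% of genes changed by 2 on the log2 scale in the comparisons of DM in primordial follicles, DM in primary follicles, stage in control and stage in DM (6699, 4181, 6726 and 4331 genes). At the dispersion of the data (3.10, 3.45, 3.11 and 3.39) it called 0% of them. In these comparisons the absence of an edgeR call therefore does not show that a gene was unchanged.

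The members and lists were chosen with earlier results of these data known. Named were the 4 members of each family with the highest mean CPM, the 3 with the smallest p in each comparison, and every member with at least 10 counts in 9 or more libraries; of other lists, up to 3 genes with the highest mean CPM. Hist1h4m, Hist1h4n, Hist1h4j, Hist4h4, Hist1h2ba, Hist1h2br, Hist1h2bq, Hist1h2aa, Hist1h2ac, Hist1h2ao, Hist2h2aa1, Hist2h2aa2, Hist1h1t and others outside this rule were named after their values were seen. Sequences came from GENCODE M21 and RefSeq (GRCm38). Lists were histone mRNA processing, chaperones, replacement variants, oocyte, granulosa, stroma or theca, cycling and blood genes.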

Additional observations from a re-analysis of the deposited data

Results flagged for a closer look

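The summed level of the 67 members moved in opposite directions with DM at the 2 stages. In oocytes from primordial follicles every DM library lay below every control library, with a difference of the means (DM minus control) of -4542 CPM, and in oocytes from primary follicles every DM library lay above every control library, with a difference of 8064 CPM. This difference between the stages was not tested. With TMM scaling the DM and control libraries overlapped at both stages. Scaled by the library total alone, most tested members did not move with the sum in primary follicles. Their median log2 fold change was then -0.31 there, against -0.87 over all genes. In primordial follicles it was -0.26, against -0.41 over all genes. Under TMM, by contrast, 29 of 48 tested members were above 0 in primary follicles (median 1.23, against 0.31 over all genes).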

How the results depend on the processing

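No member was called by edgeR at an adjusted p under 0.05 in any comparison under any scaling, filter, joint fit, replicate block or left-out library. DESeq2 called 7 members (DM in primordial follicles), 9 (DM in primary), 1 (stage in control), 11 (stage in DM) and 5 (interaction), and an unadjusted p under 0.05 was reached by 7, 4, 2, 8 and 11; the cause of the difference between the tools was not tested. Of all genes, DESeq2 called 650, 698, 288, 934 and 677, against 1, 0, 0, 0 and 0 by edgeR. Of the 15 results of a named member, 12 had no alternative of the opposite sign. The exceptions were Hist1h4f with DM in primary follicles (-1.30 without the second primary DM library, up to 10.67 without other libraries), Hist2h3b between the control stages (-0.66 without the third primary control library, up to 5.57 without other libraries) and Hist1h2bg in the interaction (1.07 with the replicate block). The difference of summed CPM was -1326 (DM in primordial), 17407 (DM in primary), 13883 (stage in control) and 31500 (stage in DM) under TMM; leaving out a library gave -6001 to -3106, 6012 to 10794, -727 to 2168 and 11286 to 16068 CPM. The median number of members detected per library was 53.5 above 3 counts and 25.5 at 100 counts or more, against 42 at 10.

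Replicate numbers are shared between the groups, but same-numbered libraries did not deviate together (correlations of -0.0465 to 0.0543 across genes, none of the pairs over 0.1), so the numbers were not taken as pairs. With the replicate number as a block, 0 members were called in each comparison. Depth limits the low end: 3 counts correspond to 0.0704 to 0.214 CPM.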

Other observations

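Hist1h2al, an annotated H2A pseudogene outside the 67 members, had 9571, 2173 and 6 counts in primordial control, 210, 1297 and 30 in primordial DM, 1111, 58 and 86 in primary control and 130, 29 and 118 in primary DM. It thus had at least 10 counts in 11 libraries. Its counts varied widely between libraries of a group, which was not particular to histone genes. The other 2 pseudogenes with such a symbol, Hist1h2aj and Hist3h2bb-ps, had at least 10 counts in 1 library each, with up to 27 and 843 counts.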
